A study of Mus musculus with 9 samples.

Results

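Clustered distal Glis3 peaks are sites of Glis3 binding that lay away from gene starts and close to each other. They were chosen from a list of 21254 peaks of 200 bp by position alone: a peak counted as distal when its midpoint lay over 1 kb from the 5′ end of every gene in the count table, distal peaks were chained when neighbouring midpoints lay within 12500 bp, and chains of 3 or more were kept. This gave 1017 clustered peaks in 303 chains, which is 4.78% of all peaks and 9.56% of the 10636 distal ones. The remaining 9619 distal peaks stood in no such chain and are called scattered here, and 10618 peaks lay within 1 kb of a 5′ end. Binding was mapped by chromatin immunoprecipitation with an antibody to GFP in pancreatic islets of 8-week-old Glis3-eGFP mice, as 1 peak list without a replicate or scores. RNA of islets from mice of 4 weeks was sequenced for expression. The controls were 4 Glis3fl/fl mice, whose Glis3 gene carries loxP sites. The labelled knockouts were 3 Pdx1-Cre;Glis3fl/fl mice, in which the Pdx1 promoter drives the Cre recombinase in cells of the pancreatic lineage. No group carried Cre without the floxed gene, the binding mice and the RNA mice differed in age and genotype, and the input library that belongs to the peaks was not used here.

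Glis3 is a Krüppel-like zinc finger transcription factor that binds DNA, and in the pancreas it is known for its part in beta cell development and in transcription of the insulin genes. Transcription factors often bind away from gene starts, at enhancers, and enhancers of genes that mark a cell type often lie in groups. The joining distance used here is one commonly used to merge sites into super-enhancers, but no signal height entered the rule, so the chains are runs of neighbouring peaks and not super-enhancer calls.

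Sequences are shown for clustered peaks whose bases a RefSeq promoter window covered (250 bases before to 50 after a RefSeq start, build GRCm38.p6, the same coordinates as mm10), because these were the clustered sites whose letters could be read. Of the 1017 peaks, 37 (3.64%) overlapped such a window and 10 were covered whole, so these sites are ones that sit at a RefSeq start which the gene spans of the count table do not show. Each is written 5′ to 3′ on the strand of that start, and capitals mark letters that match a searched motif. Labels name a gene at the peak, which is not always the gene of the start. The starts were those of Gm52678 for the Foxo6 label, Gm16174 for Bcl3, 9130015G15Rik for Nav2 and Gm51674 for Dixdc1. For C77080, Ampd2, Sptbn4 and Cbfa2t3 the start was that of the labelled gene, though Shkbp1 was nearest to the Sptbn4 peak. They are shown in 3 sets: a peak of a chain inside a gene that fell in the labelled knockouts (C77080), peaks of chains described below (near Foxo6, Bcl3, Sptbn4, Nav2 and Cbfa2t3), and the peaks with an Rfx element or a short Glis element. The C77080 peak lay at chr4:129239268-129239467 on the minus strand inside the C77080 gene, the Foxo6 peak at chr4:120269523-120269722 on the plus strand inside the Foxo6 span, the Bcl3 peak at chr7:19816351-19816550 on the plus strand and the Ampd2 peak at chr3:108085377-108085576 on the minus strand. The other peaks were covered in part: the Nav2 peak over chr7:49162216-49162408, the Sptbn4 peak over chr7:27396705-27396803 and the Cbfa2t3 peak over chr8:122678369-122678425, all on the minus strand, and the Dixdc1 peak over chr9:50699047-50699120 on the plus strand.
C77080: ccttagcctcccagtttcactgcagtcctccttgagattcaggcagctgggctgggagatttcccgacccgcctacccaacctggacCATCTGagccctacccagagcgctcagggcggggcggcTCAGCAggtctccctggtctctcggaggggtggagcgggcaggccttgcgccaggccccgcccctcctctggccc
Foxo6: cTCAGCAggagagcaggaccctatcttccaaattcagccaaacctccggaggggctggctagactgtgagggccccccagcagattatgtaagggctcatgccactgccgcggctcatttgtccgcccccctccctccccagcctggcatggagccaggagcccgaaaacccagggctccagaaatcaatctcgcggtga
Bcl3: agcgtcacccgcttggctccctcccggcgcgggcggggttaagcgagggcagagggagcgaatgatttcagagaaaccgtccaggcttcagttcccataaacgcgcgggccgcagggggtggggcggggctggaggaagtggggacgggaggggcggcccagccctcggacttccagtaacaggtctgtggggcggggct
Ampd2: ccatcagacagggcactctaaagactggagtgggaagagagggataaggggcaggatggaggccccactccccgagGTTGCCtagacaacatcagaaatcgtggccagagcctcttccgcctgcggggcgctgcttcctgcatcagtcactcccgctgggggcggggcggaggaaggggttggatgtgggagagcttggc
Nav2: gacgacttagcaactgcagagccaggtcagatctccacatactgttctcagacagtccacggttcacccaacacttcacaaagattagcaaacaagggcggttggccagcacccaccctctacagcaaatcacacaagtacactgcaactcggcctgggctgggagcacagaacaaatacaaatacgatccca
Sptbn4: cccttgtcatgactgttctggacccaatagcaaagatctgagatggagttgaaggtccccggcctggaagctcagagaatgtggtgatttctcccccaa
Cbfa2t3: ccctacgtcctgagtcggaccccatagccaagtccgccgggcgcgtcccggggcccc
Dixdc1: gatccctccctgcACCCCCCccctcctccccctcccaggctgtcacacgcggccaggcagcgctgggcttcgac

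In these letters the Glis element TGGGGGGT, searched on both strands, was found in 0 of the 10 whole peaks, against 4.26% of 94 scattered peaks, 1.10% of 1094 peaks within 1 kb of a 5′ end and 1.09% of the middle 200 bases of 32817 RefSeq promoter windows. The shorter form GGGGGGT, which lies inside the longer one, was also in 0 of the 10 and stood in the covered part of the Dixdc1 peak. Its shares were 5.32% of scattered peaks, 4.66% of peaks within 1 kb and 3.88% of promoter windows. The Maf element TGCTGA was in 3 of the 10 (30%), among them the C77080 and Foxo6 peaks. It was in 10.6% of the scattered peaks, 9.05% of peaks within 1 kb and 13.2% of the promoter windows. The E-box CAGATG, a site of factors such as Neurod1, was in 1 of the 10, the C77080 peak, against 19.1% of scattered peaks and 11.6% of promoter windows. The Rfx element GTTGCC was in 1 of the 10, the Ampd2 peak, against 18.1% and 8.71%. The AP-1 element TGACTCA was in 0 of the 10 and in 3 peaks covered in part, nearest to Tnpo1, Zmiz1 and A530013C23Rik. Its shares were 2.13% of scattered peaks, 1.28% of peaks within 1 kb and 3.66% of promoter windows. The forkhead element TGTTTAC, the homeodomain element TAATTA and the CTCF stretch CCACCAGG were each in 0 of the 10. In scattered peaks their shares were 0%, 3.19% and 1.06%. The 10 peaks were 47.5% to 69.5% G or C, with a median of 62.25%, the same as in the 94 scattered peaks and above the 53% of all windows. The 10 sites were chosen by overlap with a RefSeq start and are few, and the letters of the others were not analysed here.

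Most chains were short. Of the 303 chains, 223 held 3 peaks, 56 held 4, 20 held 5 and 4 held 6. The distance from the first to the last midpoint had a median of 14634 bp, with quartiles of 10257 and 19189.5 bp, and ran from 1213 to 40206 bp. At the edges of the rule, the largest joined gap was 12488 bp and the smallest gap that split a chain was 12510 bp, and the clustered peak closest to a 5′ end lay 1017 bp from it. Another 2294 distal peaks formed 1147 pairs and 7325 stood alone. The share of peaks that were clustered was highest on chromosome 17 (7.14% of 1008) and chromosome 8 (7.10% of 1183) and lowest on chromosome 16 (1.78% of 674) and chromosome 6 (1.80% of 1056).

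**Figure D1:**
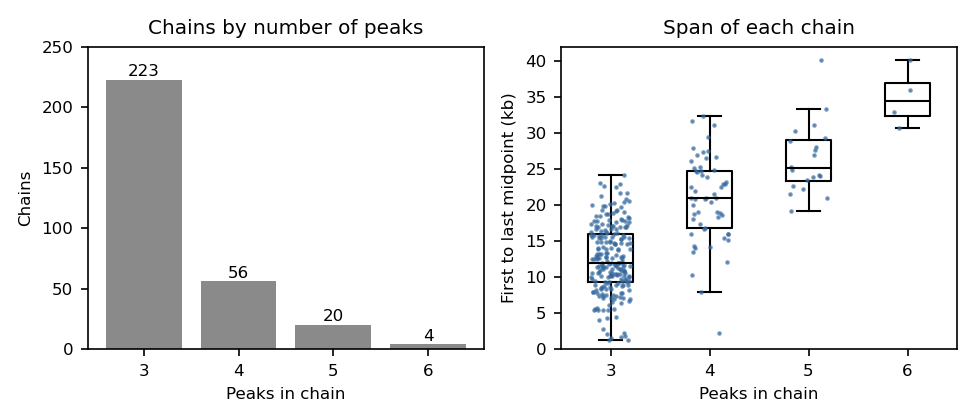
Left, number of chains by the number of peaks they hold. Right, distance in kb from the first to the last midpoint of each chain, 1 point per chain, with boxes for the median and quartiles and whiskers to the most extreme chain within 1.5 box lengths. Chains of 3 made up 223 of the 303, and the longest chains reached about 40 kb (40206 bp).

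The 4 chains of 6 peaks lay on 4 chromosomes. The chain on chromosome 13 lay after the 5′ end of Cplx2, and that on chromosome 2 lay around the predicted gene 1700025C18Rik. The chain on chromosome 1 lay around Cfap126, a gene of cilia, and that on chromosome 7 ran from Rinl past Hnrnpl and Ech1 to Lgals4. The longest chain held 5 peaks over 40206 bp on chromosome 15, between Wnt7b, which encodes a Wnt ligand, and the noncoding RNA gene Lncppara. None of the genes at these 5 chains passed the test with the exception of Rinl, described below, and 1700025C18Rik and Wnt7b were at too low a count to be tested. Cfap126 read 25.4, 18.7, 34.1 and 37.7 CPM in controls 1, 2, 3 and 4, and 24.4, 25.6 and 23.3 CPM in labelled knockouts 1, 2 and 3 (CPM are counts scaled to a common library size with TMM factors). The groups overlapped, and the adjusted p was 0.494 (edgeR quasi-likelihood test with Benjamini-Hochberg adjustment over all 14529 tested genes, used throughout). At the other genes the control and labelled knockout means ± SD (n = 4 and n = 3) were 177 ± 12.9 and 169 ± 13.1 CPM for Hnrnpl, an RNA-binding splicing factor, 36.7 ± 5.51 and 30.5 ± 6.43 CPM for Ech1, an enzyme of fatty acid oxidation, 1.001 ± 0.317 and 1.43 ± 0.652 CPM for Lgals4, a galectin, and 0.672 ± 0.0982 and 0.508 ± 0.471 CPM for Lncppara.

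Clustered peaks lay within a gene span about as often as scattered ones. Of the clustered peaks 58.6% were inside the span of a gene, against 56.1% of scattered peaks and 72.9% of peaks within 1 kb of a 5′ end, and the median distance to the nearest 5′ end was 33356 bp against 29714 bp for scattered peaks. In 158 chains every peak lay within gene spans, in 157 of them within 1 shared gene, 104 chains lay wholly between genes and 41 were mixed. A single nearest gene served all peaks of 243 chains, but only 378 peaks (37.2%) lay in the span of the gene whose 5′ end was nearest. Spans of RefSeq long noncoding RNA genes covered 18.1% of clustered peaks, 13.4% of scattered peaks and 9.71% of peaks within 1 kb of a 5′ end. A RefSeq start that is no 5′ end of the count table lay within 1 kb of 86 clustered peaks (8.46%).

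Of the RNA libraries, total counts ran from 12099365 to 48054551, and p-values measure the spread between these mice. Glis3, the targeted gene, had no clustered peak as its nearest gene. It read 39.5, 46.8, 31.2 and 33.6 CPM in the controls and 52.0, 52.7 and 57.8 CPM in the labelled knockouts. Every labelled knockout was above every control (log2 fold change 0.52 ± 0.14 SE, edgeR adjusted p = 0.0257), so the count over the whole gene does not show the deletion, and directions below are for the libraries labelled knockout. That call was lost without control 3 (adjusted p = 0.0945), control 4 (0.0850), labelled knockout 1 (0.0501) or labelled knockout 3 (0.117), and the range was 0.00948 to 0.117 over 13 alternatives. Ins2, the main insulin gene of the mouse, took 22.3% to 28.4% of the counts of a control library and 7.17% to 12.2% of those of a labelled knockout. Summed CPM of markers of duct cells (604 to 639 against 1285 to 1574, 12 genes), of stellate cells and fibroblasts (333 to 429 against 483 to 631, 12 genes) and of gamma and epsilon cells (8010 to 14519 against 2276 to 2882, 8 genes) did not overlap between controls and labelled knockouts, while acinar markers did (1046 to 6562 against 3279 to 17816, 30 table entries). Sums of alpha, delta, endothelial, immune and nerve cell markers overlapped too. Of the 8 gamma and epsilon genes 2 were lower and 2 higher, with a median log2 fold change of 0.22, so their sum does not describe each gene. The part of these differences in Ins2 and marker sums in the results below was not tested. In whole islets fewer cells of a type and less RNA per cell cannot be told apart.

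The genes nearest to clustered peaks were more often lower than higher in the labelled knockouts. Each clustered peak was assigned the gene with the nearest 5′ end, which gave 350 genes, of which 272 had counts high enough for the test and 78 did not. In the labelled knockouts 48 of the 272 (17.6%) were lower and 22 (8.09%) were higher, and 202 did not pass. Over all 14529 tested genes 5.25% were lower (763 genes) and 8.73% were higher (1268 genes). The median log2 fold change was −0.17 over the 272 and 0.01 over all tested genes. CPM of every labelled knockout lay below every control in 71 of the 272 (26.1%), against 12.6% of all tested genes, and above every control in 29 (10.7%), against 14.0%. With library sizes left unscaled, the median of all tested genes shifted to 0.18 and that of the nearest genes to 0.01, and the split became 22 lower and 30 higher (324 and 1854 over all genes), so the direction of single genes is relative to the scaling while the gap between the medians, −0.17 and −0.16, was alike under both.

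Genes near scattered peaks and near 5′ end peaks are given for comparison, with no test of the difference. Of 4338 tested genes nearest to scattered peaks 9.36% were lower and 10.2% higher, and of 9302 nearest to peaks within 1 kb 6.35% were lower and 7.72% higher. The sets share members: 194 of the 350 genes were also nearest to a scattered peak, and without the genes near clustered peaks the scattered set stood at 9.06% lower and 10.3% higher. Of 141 tested genes whose span held a whole chain, 29 (20.6%) were lower and 10 (7.09%) higher. A peak within 1 kb of their own 5′ end was present for 182 of the 350 (52.0%), untested genes included. Among the 272 tested nearest genes 173 had such a peak, and among all 14529 tested genes 10347 did (71.2%). Of the tested nearest genes with such a peak 19.1% of 173 were lower, and of those without one 15.2% of 99 were lower. Over all tested genes the shares lower were 6.00% with such a peak and 3.40% without.

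The genes near clustered peaks were also read at a higher level than most, with a median of 35.7 CPM against 15.2 CPM over all tested genes. Power to call a change rises with counts, so the shares were set side by side within quartiles of mean CPM. In the highest quartile, 37.9 CPM and above, 37 of 131 nearest genes (28.2%) were lower, against 9.03% of all tested genes and 13.7% of 1283 genes nearest only to scattered peaks. In the third quartile the shares were 10.6%, 7.30% and 12.3%, in the second they were 5.26% (2 of 38 genes), 3.30% and 6.02%, and in the lowest they were 5.41% (2 of 37 genes), 1.38% and 2.14%. The second quartile had more rises than falls, with 6 of the 38 nearest genes higher (15.8%) against 7.90% of all tested genes. The share lower was 7.79% of 77 genes with 1 to 2 clustered peaks, 24.2% of 149 with 3, and 13.0% of 46 with 4 or more, so it did not rise steadily with the number of peaks. By distance from the closest clustered peak to the 5′ end it was 12.2% of 90 genes up to 10 kb, 19.7% of 122 at 10 to 50 kb, 23.5% of 34 at 50 to 100 kb and 19.2% of 26 beyond. The shares higher in the same order were 7.78%, 4.92%, 14.7% and 15.4%.

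**Figure D2:**
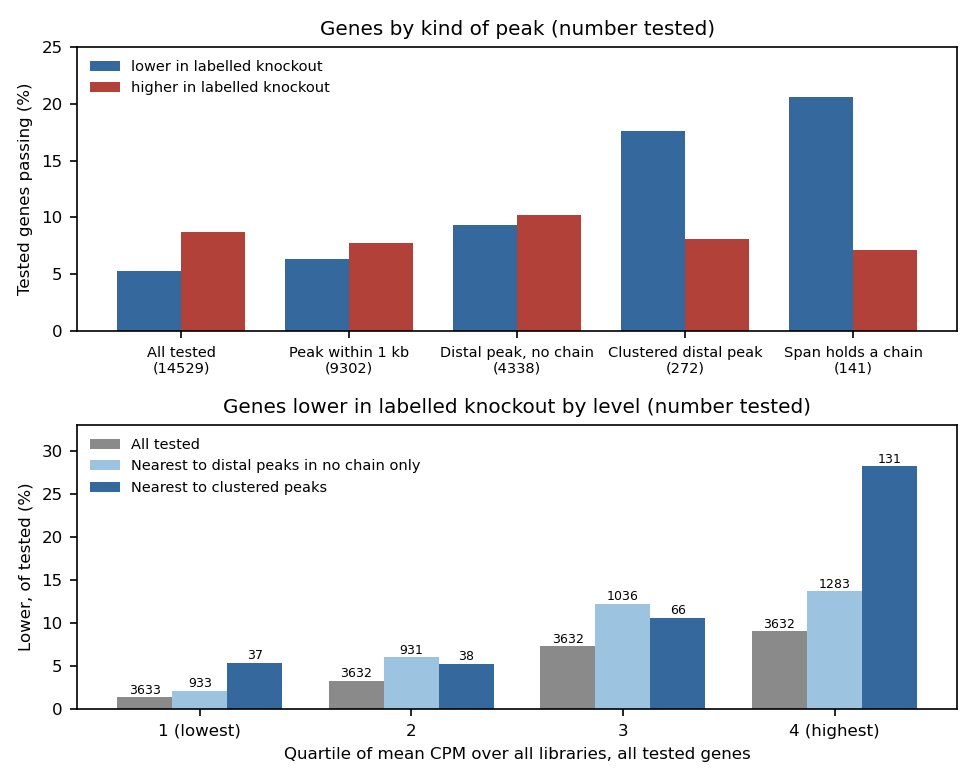
Top, percent of tested genes that passed the test as lower (blue) or higher (red) in the labelled knockouts, for all tested genes, genes nearest to 3 kinds of peak and genes whose span holds a whole chain, with the number tested in brackets. Bottom, percent lower by quartile of mean CPM, with the number tested above each bar; in the highest quartile 28.2% of genes near clustered peaks were lower against 9.03% of all tested genes.

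Among islet transcription factors, 5 of the 38 listed were nearest to a clustered peak: Mafa, Nkx6-1, Foxa2, Pdx1 and Mnx1. Mafa and Nkx6-1 fell in the labelled knockouts, none of the 5 rose, and the other 3 did not pass the test. Over the whole list 7 of 35 tested factors were lower and 5 higher. Mafa drives insulin transcription in mature beta cells, and its 3 peaks lay 30409 to 39008 bp upstream of its 5′ end on chromosome 15. All of them were inside the span of another gene, Zc3h3. Mafa read 97.4, 126, 137 and 85.8 CPM in the controls and 18.9, 51.6 and 25.8 CPM in the labelled knockouts. All labelled knockouts were below all controls, 3.46-fold lower on the fitted scale (log2 fold change −1.79 ± 0.35, edgeR adjusted p = 0.0135). Without control 1 the adjusted p was 0.0503, the highest of 13 alternatives, whose lowest was 3.62e-05.

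Nkx6-1 keeps beta cells from taking on other islet fates, and its 3 peaks lay 8348 to 19231 bp downstream of its 5′ end on chromosome 5, beyond the gene span. It read 187, 214, 253 and 190 CPM in the controls and 70.9, 122 and 79.7 CPM in the labelled knockouts. Labelled knockout 2 was the highest of its group for both Nkx6-1 and Mafa, and the groups did not overlap. The fall was 2.32-fold (log2 fold change −1.21 ± 0.18, edgeR adjusted p = 0.000535). Foxa2, a forkhead factor that opens chromatin in endoderm, had a chain of 4 peaks 53534 to 78315 bp downstream of its 5′ end on chromosome 2. It read 116, 117, 140 and 137 CPM in the controls and 98.8, 113 and 85.1 CPM in the labelled knockouts. The groups did not overlap, but the call was missed (log2 fold change −0.36 ± 0.13, edgeR adjusted p = 0.0850). It passed without labelled knockout 2 (0.0447) and with DESeq2 (0.0459), and the range over 13 alternatives was 0.0447 to 0.530.

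Pdx1 and Mnx1 were picked out after their values were seen, as the other listed factors. Pdx1, a master factor of the pancreas whose promoter drives the Cre here, was nearest to 2 peaks of a chain on chromosome 5 and read 75.5 ± 6.92 CPM (n = 4) in controls and 71.1 ± 14.2 CPM (n = 3) in labelled knockouts (edgeR adjusted p = 0.753). Mnx1, a homeodomain factor of beta cells, was nearest to 3 peaks and read 15.3 ± 2.86 against 17.4 ± 8.42 CPM (edgeR adjusted p = 0.709). The sign of the difference turned for Pdx1 without labelled knockout 1 and for Mnx1 without labelled knockout 2. None of the listed markers of alpha, delta, gamma or epsilon, acinar, duct, endothelial, stellate, immune or nerve cells, and none of 26 genes on a list of Wnt and Hedgehog pathway members and Gli and Glis factors, was the nearest gene of a clustered peak. The list of Wnt, Hedgehog, Gli and Glis genes does not hold Wnt7b, the nearest gene of 3 peaks of the longest chain. Nearest genes made up 350 of the 25611 table entries, so a short list can hold none of them at that share.

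Genes of hormone processing and granule release held 6 nearest genes of 32 listed: Pcsk2, Scg3, Snap25, Rimbp2, Cplx2 and Syt13. Pcsk2, Scg3 and Snap25 rose, Rimbp2 fell, and Cplx2 and Syt13 did not pass. Over the whole list 14 of 32 tested genes were higher and 5 lower. Scg3, a secretogranin of the granule membrane, was nearest to 2 of the 3 peaks of a chain inside its span on chromosome 9. It read 1492, 1342, 1301 and 1336 CPM in the controls and 5039, 4320 and 5167 CPM in the labelled knockouts. The labelled knockouts were far above the controls with little spread in either group (3.54-fold higher, log2 fold change 1.82 ± 0.12, edgeR adjusted p = 6.45e-07). Pcsk2, the prohormone convertase that cleaves proinsulin and proglucagon, had 3 peaks 121152 to 131392 bp upstream on chromosome 2. It read 3407, 3187, 3605 and 3610 CPM in the controls and 5756, 5992 and 5722 CPM in the labelled knockouts. The rise was 1.69-fold without overlap (log2 fold change 0.75 ± 0.12, edgeR adjusted p = 0.000601).

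Rimbp2, which ties calcium channels to the release machinery, moved the other way, with 3 peaks inside its span 41911 to 58676 bp from the 5′ end on chromosome 5. It read 207, 267, 277 and 252 CPM in the controls and 152, 170 and 163 CPM in the labelled knockouts. All labelled knockouts were lower (log2 fold change −0.63 ± 0.13, edgeR adjusted p = 0.00517). Cplx2 encodes complexin 2, which clamps and triggers vesicle fusion, and with 10 peaks in 2 chains it had more clustered peaks as nearest gene than any other gene. It read 741, 697, 718 and 726 CPM in the controls and 755, 616 and 701 CPM in the labelled knockouts. The groups overlapped (log2 fold change −0.06 ± 0.12, edgeR adjusted p = 0.792). Snap25, a SNARE protein of vesicle fusion, and Syt13, a synaptotagmin, were picked out after their values were seen. Snap25 rose from 153 ± 12.9 to 223 ± 12.4 CPM (edgeR adjusted p = 0.00670), and Syt13 read 781 ± 45.5 against 680 ± 35.8 CPM (edgeR adjusted p = 0.285).

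Of 33 ion channel genes on a list, 32 of them in the table, 3 were the nearest gene of a clustered peak: Kcnj11, Cacna1a and Kcnmb2. Over the whole channel list 7 of 31 tested genes were lower and 4 higher. Channel genes outside the list were also nearest genes, among them Hcn4 and Kcnk12, neither of which passed the test. Kcnj11 encodes the pore of the ATP-sensitive potassium channel that couples glucose to insulin release. It was the only nearest gene of a clustered peak on the beta cell identity and glucose sensing list (30 genes). Mafa, Nkx6-1 and Pdx1 stood on the transcription factor list and not on that one. Over the identity and glucose sensing list 11 of 30 tested genes were lower and 8 higher, so falls were common there. For Kcnj11 itself the values were as follows. Its 3 peaks lay 12654 to 27609 bp upstream on chromosome 7, all inside the span of the neighbouring Abcc8, which encodes the partner subunit of the same channel. It read 147, 134, 142 and 149 CPM in the controls and 97.6, 124 and 107 CPM in the labelled knockouts. The groups did not overlap, and the difference passed narrowly (log2 fold change −0.38 ± 0.12, edgeR adjusted p = 0.0492). The call was lost without any of the 4 controls (0.0707 to 0.0880) and without labelled knockout 1 (0.176) or 3 (0.0956), and over 13 alternatives the range was 0.0114 to 0.423.

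Cacna1a encodes a neuronal and islet calcium channel subunit, and had 3 of the 5 peaks of a chain 58593 to 68773 bp upstream on chromosome 8. It read 44.3, 55.4, 72.1 and 65.4 CPM in the controls and 79.4, 108 and 75.6 CPM in the labelled knockouts. Every labelled knockout was above every control, by a small margin (log2 fold change 0.57 ± 0.17, edgeR adjusted p = 0.0398). The call was lost without control 1 (0.0832), 2 (0.1004) or 4 (0.0540) and without labelled knockout 1 (0.0570), 2 (0.169) or 3 (0.0532), and the range over 13 alternatives was 0.00397 to 0.169. Kcnmb2, a regulatory subunit of a calcium-activated potassium channel, read 79.0 ± 10.7 CPM in the controls against 63.9 ± 4.68 CPM and did not pass (edgeR adjusted p = 0.126).

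Genes with the most clustered peaks were counted by nearest 5′ end and not by span. Of 46 tested genes with 4 or more, 6 (13.0%) were lower and 1 (2.17%) was higher, against 5.25% and 8.73% of all tested genes. Cplx2 had 10, Bcor, 0610039H22Rik and 1700025C18Rik had 9 each, Nr3c1 had 8, Foxo6, Casz1 and Irf2bpl had 7 each, and Tns3 and Uaca had 6 each. Only Tns3 and Uaca passed, both lower. Tns3, a tensin that links integrins to actin, held its 6 peaks in 2 chains inside its span, 160633 to 218505 bp from the 5′ end on chromosome 11. It read 98.6, 94.2, 82.2 and 76.7 CPM in the controls and 50.9, 54.3 and 53.9 CPM in the labelled knockouts. The groups stood apart (log2 fold change −0.73 ± 0.12, edgeR adjusted p = 0.000977). Uaca, a regulator of the apoptosome, also held 6 peaks in 2 chains inside its span on chromosome 9. It read 67.5, 79.4, 70.7 and 65.1 CPM in the controls and 49.6, 54.2 and 59.1 CPM in the labelled knockouts. The groups did not overlap but the margin was small (log2 fold change −0.38 ± 0.12, edgeR adjusted p = 0.0460), and the call was lost without control 1 (0.0607), 2 (0.142) or 3 (0.0837) or labelled knockout 1 (0.142) or 2 (0.0911), within a range of 0.0254 to 0.444 over 13 alternatives.

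Bcor, an X-linked corepressor, carried 9 peaks in 3 chains inside its span, between 1745 and 90751 bp from the 5′ end. It read 40.5, 37.3, 40.5 and 40.8 CPM in the controls and 28.9, 39.1 and 37.3 CPM in the labelled knockouts. Labelled knockout 1 was the lowest library and the groups overlapped (edgeR adjusted p = 0.413). Nr3c1, the glucocorticoid receptor, had 4 peaks 1873 to 4088 bp upstream of its 5′ end on chromosome 18. Another 4 lay 161077 to 186242 bp downstream of it, inside the span of Arhgap26. Nr3c1 read 58.6 ± 6.41 CPM in the controls against 51.7 ± 1.72 CPM (edgeR adjusted p = 0.344). Foxo6, a forkhead factor, read 25.7 ± 6.06 against 19.1 ± 3.48 CPM (edgeR adjusted p = 0.184). Casz1, a zinc finger factor with all 7 peaks inside its span, read 32.6 ± 5.90 against 27.8 ± 2.66 CPM (edgeR adjusted p = 0.385), and Irf2bpl, a transcriptional coregulator, read 37.0 ± 5.29 against 35.1 ± 8.20 CPM (edgeR adjusted p = 0.826). The predicted genes 0610039H22Rik and 1700025C18Rik were below 1 CPM in every library and were not tested. All 9 peaks nearest to 0610039H22Rik lay inside the span of Msi2, as did a chain of 5 peaks nearest to Mir378b. A count by span would place Msi2 above the genes named here.

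Among the largest falls in nearest genes at 1 CPM or more on average, after Mafa and with predicted genes left out, were Sh3pxd2a, Capn9, Sptbn4, Rad51ap2, Nkx6-1, Zfp568, Rhobtb1 and Rybp. Sh3pxd2a encodes TKS5, a scaffold of actin-rich protrusions, and its 3 peaks lay in its span 32818 to 42798 bp from the 5′ end on chromosome 19. It read 131, 161, 154 and 162 CPM in the controls and 44.7, 47.6 and 50.6 CPM in the labelled knockouts. The groups were far apart (3.19-fold lower, log2 fold change −1.67 ± 0.12, edgeR adjusted p = 1.33e-06). Sptbn4, a spectrin of the membrane skeleton, held all 5 peaks of a chain in its span on chromosome 7, although Shkbp1 had the nearer 5′ end for 4 of them. It read 83.1, 106, 106 and 106 CPM in the controls and 25.4, 44.3 and 46.5 CPM in the labelled knockouts. The fall was 2.58-fold without overlap (log2 fold change −1.37 ± 0.19, edgeR adjusted p = 0.000227), whereas Shkbp1, picked out after its values were seen, read 17.9 ± 1.74 against 22.5 ± 6.42 CPM and did not pass (edgeR adjusted p = 0.289).

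Zfp568, a KRAB zinc finger protein, had 3 peaks inside its span on chromosome 7. It read 26.9, 55.9, 57.2 and 48.0 CPM in the controls and 18.0, 22.5 and 23.1 CPM in the labelled knockouts. Control 1 lay well below the other controls but above every labelled knockout (2.21-fold lower, log2 fold change −1.14 ± 0.23, edgeR adjusted p = 0.00454).

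Rhobtb1, an atypical GTPase, had 3 peaks 47582 to 57331 bp upstream on chromosome 10. It read 65.7, 71.6, 124 and 124 CPM in the controls and 36.5, 50.9 and 48.4 CPM in the labelled knockouts. The controls fell into a lower and a higher pair, both above the labelled knockouts (log2 fold change −1.09 ± 0.24, edgeR adjusted p = 0.0109), and the call was lost without labelled knockout 1 (0.0548, within 2.75e-05 to 0.0548 over 13 alternatives). Rybp, a subunit of a Polycomb complex, read 18.5, 17.0, 9.56 and 8.90 CPM in the controls and 5.27, 7.65 and 7.22 CPM in the labelled knockouts, with 3 peaks 146706 to 159338 bp away. Controls 1 and 2 were the lower pair for Rhobtb1 and the higher pair for Rybp, and every control was above every labelled knockout for both. Rybp was called (log2 fold change −1.01 ± 0.28, edgeR adjusted p = 0.0289) and lost without control 1 (0.0884) or 2 (0.0954) or labelled knockout 1 (0.0956) or 3 (0.0626), within 0.00708 to 0.0956 over 13 alternatives.

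Capn9 and Rad51ap2 were low. Capn9, a calpain protease, had 3 peaks inside its span on chromosome 8 and read 4.67, 3.81, 3.04 and 3.64 CPM in the controls and 0.743, 1.296 and 2.13 CPM in the labelled knockouts. Its groups did not overlap (log2 fold change −1.43 ± 0.42, edgeR adjusted p = 0.0361), but leaving out any 1 library other than labelled knockout 3 lost the call (0.0509 to 0.108), within 0.00703 to 0.108 over 13 alternatives. Rad51ap2 read 4.53, 3.62, 2.98 and 3.92 CPM in the controls and 1.04, 1.77 and 1.68 CPM in the labelled knockouts, with 3 peaks 152982 to 167616 bp away. It too was called (log2 fold change −1.31 ± 0.38, edgeR adjusted p = 0.0319) and lost without control 1 (0.105), 2 (0.0811) or 4 (0.0730) or labelled knockout 1 (0.0668) or 3 (0.0534), within 0.00573 to 0.105 over 13 alternatives.

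**Figure D3:**
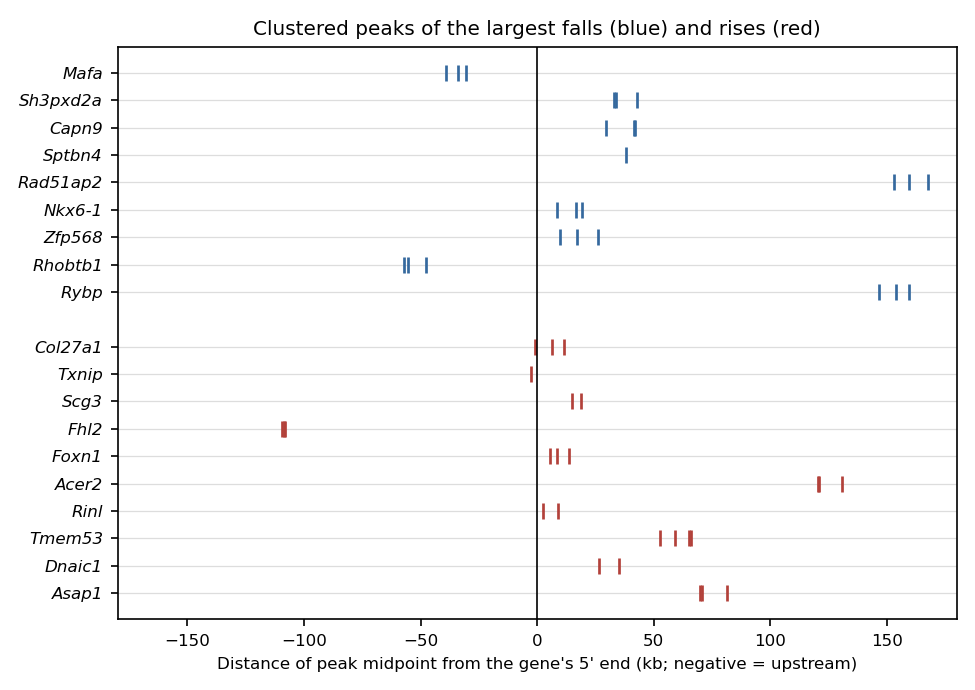
Distance in kb of each clustered peak from the 5′ end of its nearest gene, in the direction of the gene (negative is upstream), for 9 of the largest falls (blue) and the 10 largest rises (red) in the labelled knockouts; each tick is 1 peak. Peaks of Mafa (30409 to 39008 bp), Rhobtb1, Txnip and Fhl2 lay upstream, those of Col27a1 lay on both sides, and those of the other genes lay downstream of the 5′ end.

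The largest rises were in Col27a1, Txnip, Scg3, Fhl2, Foxn1, Acer2, Rinl, Tmem53, Dnaic1 and Asap1. Col27a1, a fibrillar collagen chain, had 1 peak 1128 bp upstream and 2 peaks inside its span at 6229 and 11429 bp on chromosome 4. It read 19.8, 18.8, 29.0 and 25.9 CPM in the controls and 133, 196 and 122 CPM in the labelled knockouts. It was 6.46-fold higher and the groups were far apart (log2 fold change 2.69 ± 0.19, edgeR adjusted p = 1.13e-06). Txnip, a glucose-responsive regulator of thioredoxin, was nearest to 1 of 4 peaks in a chain on chromosome 3, 2529 bp upstream. It read 235, 272, 124 and 124 CPM in the controls and 1165, 439 and 667 CPM in the labelled knockouts. Both groups were widely spread without overlap (4.02-fold higher, log2 fold change 2.01 ± 0.44, edgeR adjusted p = 0.0262), and the call was lost without control 1 (0.0823) or 4 (0.0559) or labelled knockout 3 (0.0511), within 0.000609 to 0.111 over 13 alternatives. The other 3 peaks of that chain were nearest to the predicted gene Gm15441, picked out after its values were seen, which rose from 1.77 ± 0.443 to 8.11 ± 5.2 CPM (edgeR adjusted p = 0.00390). Gm15441 overlaps Txnip on the opposite strand and whether counting used the strand is not known from the sources used, so reads of the pair cannot be told apart.

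Acer2, an alkaline ceramidase, had 3 peaks 120369 to 130581 bp downstream of its 5′ end on chromosome 4, inside the span of Slc24a2. Acer2 read 10.1, 9.43, 13.0 and 16.7 CPM in the controls and 22.9, 29.3 and 27.7 CPM in the labelled knockouts. The groups did not overlap (2.18-fold higher, log2 fold change 1.12 ± 0.20, edgeR adjusted p = 0.00187). Asap1, an activating protein for Arf GTPases, had 3 peaks in its span on chromosome 15. It read 17.2, 17.0, 13.6 and 17.1 CPM in the controls and 36.7, 28.2 and 28.0 CPM in the labelled knockouts. Again the groups did not overlap (1.90-fold higher, log2 fold change 0.93 ± 0.16, edgeR adjusted p = 0.00112). Fhl2, a LIM domain cofactor, had 3 peaks spanning 1306 bp, 108032 to 109338 bp upstream on chromosome 1, and read 2.23, 2.22, 2.92 and 2.25 CPM in the controls and 7.20, 9.33 and 4.21 CPM in the labelled knockouts. Labelled knockout 3 was the lowest of its group and still above every control (log2 fold change 1.53 ± 0.32, edgeR adjusted p = 0.00610).

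Tmem53, a membrane protein, had 4 peaks 52544 to 66029 bp downstream on chromosome 4, inside the span of Rnf220. Tmem53 read 5.05, 4.36, 6.51 and 4.31 CPM in the controls and 11.1, 7.65 and 12.9 CPM in the labelled knockouts. The groups did not overlap (log2 fold change 1.07 ± 0.25, edgeR adjusted p = 0.0118), and the call was lost without labelled knockout 3 (0.0717, within 0.00148 to 0.0717 over 13 alternatives). Foxn1, a forkhead factor of the thymic epithelium, had 3 peaks in its span on chromosome 11 and read 1.32, 1.69, 2.07 and 1.34 CPM in the controls and 2.52, 5.79 and 4.52 CPM in the labelled knockouts. It was called (log2 fold change 1.42 ± 0.39, edgeR adjusted p = 0.0263) and lost without control 1 (0.0692), 2 (0.0647) or 4 (0.0707) or labelled knockout 2 (0.110) or 3 (0.0772), within 0.00522 to 0.110 over 13 alternatives.

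Rinl, a regulator of Rab GTPases in the 6-peak chain of chromosome 7, read 3.41, 2.88, 2.68 and 1.77 CPM in the controls and 6.98, 6.26 and 4.12 CPM in the labelled knockouts. It was higher in all labelled knockouts (log2 fold change 1.10 ± 0.33, edgeR adjusted p = 0.0405), and the call was lost without control 2 (0.0848), 3 (0.0858) or 4 (0.101) or labelled knockout 1 (0.113) or 2 (0.0928), within 0.0147 to 0.116 over 13 alternatives. Dnaic1, a dynein chain of cilia, read 4.77, 5.17, 11.3 and 6.84 CPM in the controls and 15.5, 15.7 and 10.01 CPM in the labelled knockouts. Here control 3 lay above labelled knockout 3, so the groups overlapped (log2 fold change 0.98 ± 0.29, edgeR adjusted p = 0.0378), and the call was lost without control 1 (0.0900), 2 (0.109) or 4 (0.0788) or labelled knockout 1 (0.111) or 2 (0.117), within 0.00642 to 0.117 over 13 alternatives.

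**Figure D4:**
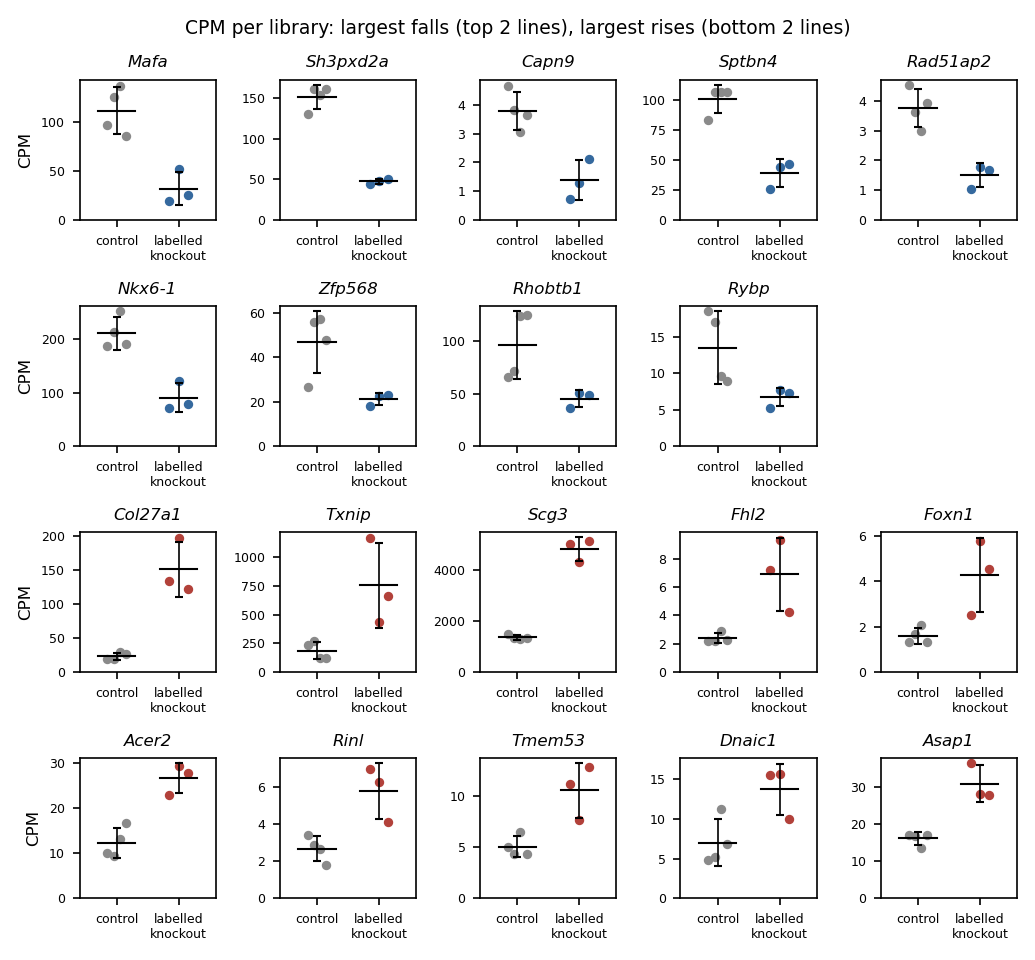
CPM of 9 of the largest falls and the 10 largest rises among genes nearest to clustered peaks, 1 point per library (4 controls, 3 labelled knockouts), on linear axes from 0. Black lines and bars are the mean and SD. Col27a1 and Scg3 stood far above their controls in all 3 labelled knockouts, and Dnaic1 is the 1 gene plotted whose groups overlap.

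Several genes of cell growth, signalling and traffic near chains, picked out after their values were seen, were lower under every one of 14 settings. Ccnd2 encodes cyclin D2, the main D-type cyclin of beta cells, and its 3 peaks began 56381 bp from its 5′ end on chromosome 6. It read 512, 502, 474 and 477 CPM in the controls and 256, 291 and 310 CPM in the labelled knockouts. No library overlapped (log2 fold change −0.78 ± 0.12, edgeR adjusted p = 0.000609). Stat5b, a transcription factor of prolactin and growth hormone signalling, fell from 62.3 ± 3.86 to 37.8 ± 4.77 CPM (edgeR adjusted p = 0.00128). Rap1gap2, which switches off Rap1, fell from 207 ± 33.1 to 109 ± 15.1 CPM (edgeR adjusted p = 0.000950) and held a chain of 5 peaks in its span, 4 of them nearest to it. Camk2n1, an inhibitor of CaM kinase II, fell from 374 ± 33.1 to 211 ± 44.6 CPM (edgeR adjusted p = 0.00207), and Rab6a, a GTPase of Golgi traffic, fell from 132 ± 10.5 to 80.1 ± 11.2 CPM (edgeR adjusted p = 0.00191). In all, 18 of the 48 lower genes and 12 of the 22 higher genes were called in every one of the 14 settings. The same count over all called genes is not given here, so these shares cannot be read as particular to the nearest genes.

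At the genes whose peak sequences are shown above, C77080 read 61.5, 70.4, 65.3 and 55.1 CPM in the controls and 32.2, 44.0 and 33.3 CPM in the labelled knockouts. All labelled knockouts were lower (log2 fold change −0.79 ± 0.14, edgeR adjusted p = 0.00172), and all 3 of its peaks lay in its span. Nav2, a neuron navigator protein, held in its span a chain of 5 peaks nearest to it and a chain of 3 nearest to Dbx1. Nav2 read 94.0, 125, 140 and 133 CPM in the controls and 79.8, 78.1 and 97.2 CPM in the labelled knockouts. Control 1 lay below labelled knockout 3 (log2 fold change −0.53 ± 0.15, edgeR adjusted p = 0.0282), and the call was lost without control 2 (0.0642), 3 (0.0782) or 4 (0.0606) or labelled knockout 1 (0.0981) or 2 (0.0911), within 0.00493 to 0.132 over 13 alternatives. Cbfa2t3, a transcriptional corepressor with 3 peaks in its span, fell from 70.5 ± 11.0 to 37.4 ± 16.1 CPM (edgeR adjusted p = 0.0249), a call lost without control 2 (0.0519), 3 (0.0513) or 4 (0.0501) or labelled knockout 1 (0.0604) or 3 (0.0787), within 0.000279 to 0.0787. These 3 genes were also chosen with their values in view. The genes nearest to the Foxo6, Bcl3, Ampd2 and Dixdc1 peaks did not pass.

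Counted over chains, 50 of the 249 chains with a tested nearest gene had at least 1 that was lower, 21 had at least 1 that was higher and 0 had both. By gene the shares were 17.6% lower and 8.09% higher, against 5.25% and 8.73% of all tested genes. The 48 lower genes were 6.29% of the 763 lower genes of the whole table, and the 22 higher genes were 1.74% of the 1268 higher ones, so most changed genes were not the nearest gene of a clustered peak.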

How the data were processed

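Expression was measured in islets of 7 mice (4 control, 3 labelled knockout) and Glis3 binding in 1 peak list. Each RNA library is of its own mouse per the labels, which also gave the groups and replicate numbers. The authors deposited whole-number counts per gene, not normalised, with mm10 gene spans per the file headers, and peaks as 200 bp intervals without scores. The submitters' processing notes list STAR 2.5, featureCounts 1.5.0-p1, Bowtie 1.2, bedtools 2.24.0 and HOMER 4.9.1. Settings, strand option, annotation and use of the input are not stated in the sources used here.

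Chains and nearest genes were found from peak midpoints and the gene spans of the 25611 table entries, of which 988 repeat a symbol and were kept apart, so a nearest gene is a matter of distance and not of a shown target. Counts were filtered with filterByExpr by group, scaled with TMM factors and tested in edgeR 4.0.16 under R 4.3.3 (robust quasi-likelihood F test). Benjamini-Hochberg adjustment ran over 14529 genes, and genes with an adjusted p under 0.05 were called. A log2 fold change sets the labelled knockout over the control, the SE is the absolute log2 fold change over the square root of F, and CPM are TMM-normalised. The fit was tested on simulated counts. No 2 libraries were copies (chi-square per degree of freedom 23.4 to 95.4). Same-numbered libraries correlated at 0.126, 0.0800 and 0.0920 in their deviations. Controls 1 to 3 correlated with labelled knockouts of another number at −0.139 to 0.0291. The main fit did not take the numbers as pairs, and a replicate block was run as an alternative.

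Clustered peaks, gene lists and tests were chosen with earlier results of these data known. Named genes were Glis3, the 10 genes with the most clustered peaks, the 10 largest falls and rises among called nearest genes with a mean of at least 1 CPM (predicted genes left out), up to 3 per list, and the genes of the chains with the most peaks or the longest; others are said to be picked out after their values were seen, and 1 gene that the rule names is not reported here. Alternatives were DESeq2 1.42.0, RLE factors, library size alone, limma-voom 3.58.1, no filter, a replicate block, leaving out each library, and other rules for chains and nearest genes. Bases come from RefSeq promoter windows (GRCm38.p6).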

Additional observations from a re-analysis of the deposited data

Results flagged for a closer look

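In 7 of the genes named above, 1 control library stood apart from the other 3 by Dixon's criterion at the 95% level. Chance gives such a flag in about 1 in 20 groups of 4. Control 2 was low for Bcor (37.28 CPM) and for Ech1 (28.41 CPM). Control 3 was high for Irf2bpl (44.81 CPM) and Fhl2 (2.922 CPM) and low for Asap1 (13.58 CPM). Control 1 was low for Sptbn4 (83.11 CPM), and control 4 was low for Lncppara (0.5265 CPM). Of these genes Sptbn4, Fhl2 and Asap1 were called, and each was called in every one of the 14 settings, those without that control included.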

How the results depend on the processing

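Under DESeq2, RLE factors, limma-voom, no filter and the replicate block, the nearest genes called lower numbered 48 to 55 and those called higher 21 to 26. The shares lower were 16.4% to 19.5%, against 4.65% to 5.75% of all tested genes. The shares higher were 6.94% to 8.20%, against 6.97% to 9.53%. With library size alone 22 were lower and 30 higher, and the median log2 fold change of the nearest genes was 0.01472. These were 8.09% and 11.0% of the tested nearest genes, against 2.23% and 12.8% of all tested genes. Leaving out each library in turn gave 32 to 48 lower, 15 to 20 higher and medians of −0.21 to −0.15. The replicate block gave 53 lower and 21 higher, of which 45 and 18 were the same genes as without it; labelled knockout 3 correlated best with control 4 (0.124) and not with control 3, a hint from the data only. Of the 4 controls, control 4 has no labelled knockout of its number.

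The rule for chains set the numbers, and the shares of tested genes lower and higher are given in brackets. They were 17.6% and 8.09% under the main rule and 5.25% and 8.73% over all tested genes. With neighbours joined within 5 kb there were 28 chains and 85 peaks, with 3 of 21 tested nearest genes lower and 1 higher (14.3% and 4.76%). Within 25 kb there were 637 chains and 2411 peaks, with 113 of 673 lower and 56 higher (16.8% and 8.32%). Chains of 5 or more numbered 24 with 124 peaks, with 4 of 26 lower and 3 higher (15.4% and 11.5%). Genes whose span holds a clustered peak, an alternative chosen after seeing the data, gave 32 of 189 lower and 13 higher (16.9% and 6.88%). Leaving out RefSeq starts, also chosen then, gave 39 of 227 lower and 19 higher (17.2% and 8.37%).

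Among the single named genes 602 of the values under an alternative kept direction and side of the threshold, 86 lost the call, 2 gained it and 12 changed sign, all in genes that were not called. With library size alone these were Cplx2 (0.111), Irf2bpl (0.1085), Hnrnpl (0.1127) and Pdx1 (0.0805). Without labelled knockout 2 they were Cplx2 (0.01258), Lncppara (0.1926) and Mnx1 (−0.2891), the last also with the replicate block (−0.02087). Without labelled knockout 1 they were Irf2bpl (0.006425) and Pdx1 (0.06423), and Irf2bpl changed sign without control 3 (0.01342) and labelled knockout 3 (0.009571). Leaving out each library gave −0.1321 to 0.01258 for Cplx2, −0.2836 to 0.01342 for Irf2bpl, −1.339 to 0.1926 for Lncppara and −0.2891 to 0.4075 for Mnx1. The cause was not tested. Where calls are said above to be lost, only left-out libraries are named. Library size alone also lost Uaca, Kcnj11, Capn9, Rad51ap2, Rybp, Txnip and Nav2 (edgeR adjusted p of 0.0657 to 0.444). The replicate block also lost Glis3, Capn9, Rad51ap2, Txnip, Foxn1, Rinl, Dnaic1 and Kcnj11 (edgeR adjusted p of 0.0505 to 0.116). Uaca, Rad51ap2 and Rybp were lost in limma-voom, and Txnip with no filter.

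Planned comparisons of GC content and motifs were run only where RefSeq windows cover a peak, and flanking windows were not run. At this depth 78 nearest genes had too few counts to be tested.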
